A study of Capra hircus with 10 samples.

Results

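The miR-181 family is the group of miRNA named miR-181a, miR-181b, miR-181c and miR-181d. Its members were taken by name, as every listed miRNA that carried one of these names after its species prefix was dropped, whatever its copy number or arm. This gave 7 of the 1804 miRNA counted in the mammary gland of lactating goats, of which 4 came from the 5p arm of the hairpin and 3 from the 3p arm. The libraries came from Alpine goats, 1 library per goat, at peak lactation 48 ± 2 days after kidding. All goats had eaten orchard grass hay with concentrate (35:65 forage to concentrate) for 2 weeks. During the last 48 h, 4 Control goats ate this diet at will and 6 goats were food deprived (FD), with free water and 2 milkings a day in both groups. L01, L04, L06 and L10 are the Control libraries and the other 6 of L01 to L10 are FD libraries. Whole gland was sequenced, so fewer cells of a type and less RNA per cell cannot be told apart in any value given here.

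A miRNA is cut as a duplex from a hairpin precursor, and usually one arm of the duplex is loaded into the silencing complex while the other is lost. The loaded strand finds its messenger RNA mainly through the bases next to its 5′ end, called the seed (bases 2 to 8), and miRNA with the same seed form a family because they can bind many of the same sites. In mammals the miR-181 family is best known from the immune system, where miR-181a is high in developing T cells, sets their sensitivity to antigen and favours B cell differentiation. Copies of miR-181a and miR-181b lie next to each other in the genome, and miR-181c lies next to miR-181d.

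The mature sequences show what the members share and which of them can be told apart by their reads. They are given as deposited, as DNA letters from 5′ to 3′, with the seed in capitals.

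miR-181a-5p: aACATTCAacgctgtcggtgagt

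miR-181b-5p: aACATTCAttgctgtcggtgggt

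miR-181c-5p: aACATTCAacctgtcggtgag

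miR-181d-5p: aACATTCAttgttgtcggtgggt

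miR-181a-3p: aACCATCGaccgttgattgtacc

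miR-181b-3p: cTCACTGAtcaatgaatgcaa

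miR-181c-3p: aCCATCGAccgttgagtggacc

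The 5p arms all carried the seed ACATTCA, and these 4 were the only miRNA among the 1804 that did. Counted from the 5′ end of miR-181a-5p, miR-181b-5p differed by the substitutions A9T, C10T and A21G, and miR-181d-5p by these and C12T. miR-181c-5p had no substitution against miR-181a-5p but lacked 2 of its bases, so that it was 21 bases long instead of 23. miR-181b-5p and miR-181d-5p differed from each other only by C12T, and the number of mismatches allowed in counting was not given in the sources used here, so reads of this pair may have been shared between them. The seeds of the listed 3p arms differed from each other and each occurred once among the 1804 miRNA.

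The miR-181a of these goats was not counted on a goat hairpin of that name but on predicted hairpins. miRDeep2, which predicts hairpin precursors where mapped short reads form the stacks that Dicer cutting leaves, placed the family seed in 2 hairpins on the goat genome CHIR_1.0. One was on chromosome 16 (75345958 to 75346020, minus strand, 63 bases) and the other on chromosome 11 (94178850 to 94178909, plus strand, 60 bases). They are shown as RNA, with the seed of the 5p arm and the whole predicted 3p arm in capitals.

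chromosome 16 hairpin: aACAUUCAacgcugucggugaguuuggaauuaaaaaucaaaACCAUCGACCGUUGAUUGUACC

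chromosome 11 hairpin: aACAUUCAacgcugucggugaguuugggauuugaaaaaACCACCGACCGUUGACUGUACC

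The first 27 bases of the hairpins were identical and held the whole miR-181a-5p, so no read of miR-181a-5p showed which hairpin it came from. Over all libraries together, 2134537 reads were counted at the chromosome 16 hairpin and 2129064 at the chromosome 11 hairpin, the highest and second highest of the 1070 predicted precursors. Nearly all were the shared 5p reads, 2123825 and 2123802, counted at both places. The reads of the 3p arm, 10712 and 5262, were counted at each hairpin separately. The miRDeep2 scores, log-odds scores of a true precursor, were 4.2 and 5.3, against a median of 3.2 over all predicted precursors. The 3p arm of the chromosome 16 hairpin was listed as miR-181a-3p. The predicted arm marked above is 22 bases long and starts 1 base after the listed 23-base miR-181a-3p, so that its own bases 2 to 8, CCAUCGA, are those of the seed of miR-181c-3p. The 3p arm of the chromosome 11 hairpin was listed as miR-181f-3p, a name of another species that the selection by name did not take:

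miR-181f-3p: aCCACCGAccgttgactgtacc

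Its bases differed from those of miR-181a-3p by T6C and T17C, counted from the 5′ end of miR-181a-3p, and it lacked 1 base. In the goat gene table of RefSeq (assembly ARS1.2), MIR181B was listed on chromosome 11 within NR6A1, and MIR181D and MIR181C next to each other on chromosome 7, followed by MIR23A and MIR27A within ZSWIM4. MIR181A was not among its symbols.

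The library totals were between 4495512 and 9842009 counts, and each goat gave a single library, so the spread between libraries is that between goats together with that of library preparation. The libraries held the 6 listed miRNA of epithelial cells (miR-205-5p and 5 of the miR-200 family), which summed to between 220473 and 244168 normalized counts in Control and between 172861 and 242470 in FD. A normalized count is the count divided by a size factor that sets the libraries to a common scale. In the same unit the 6 leukocyte miRNA found ran from 35827 to 68160 in Control and from 42545 to 131793 in FD, the 3 erythroid ones from 3750 to 6061 and from 5961 to 8756, the 2 endothelial ones from 117544 to 144955 and from 136542 to 197735, and the 6 stromal ones from 688722 to 925910 and from 577975 to 1133907. With edgeR, 0 members of these lists were called, and 0 of all 490 miRNA tested. This depends on the tool, as DESeq2 called 27 of the 490. The study, which used DESeq2, reported miR-223-3p, miR-223-5p, miR-451-5p and miR-126-3p of these lists as higher in FD. A log2 fold change above 0 in FD was found for 5 of 6 leukocyte, 3 of 3 erythroid, 2 of 2 endothelial, 5 of 6 stromal and 1 of 6 epithelial miRNA. Over all miRNA tested it was found for 245 of 490 (50.0%), and arms of the same hairpin count separately in the lists. The part of these cells in the family values was not tested.

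Almost all of the family was a single miRNA. Its 7 members together took 3.02% ± 0.781 (SD, n = 4) of the counts in Control libraries and 3.40% ± 0.565 (SD, n = 6) in FD libraries, with single libraries between 1.96% (L10) and 4.25% (L09). miR-181a-5p made up between 96.1% and 97.8% of the family in every library. It was the 7th most abundant of the 1804 miRNA by mean normalized count and stood between ranks 6 and 10 in single libraries.

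miR-181a-5p had 227372, 182361, 214916 and 135896 normalized counts in L01, L04, L06 and L10. In FD libraries the lowest value was 173743 (L08), the median 208042 and the highest 277646 (L09). The diets overlapped, with 3 of 6 FD libraries above every Control library, and the lowest of the 10 values was that of the Control goat L10. miR-181b-5p, the second member, was 41.3 times less abundant by mean. It had 5448, 5421, 4014 and 4381 normalized counts in L01, L04, L06 and L10, and 3558 (L08), 4423 and 7388 (L05) as the lowest, the median and the highest of FD. Here the FD libraries lay on both sides of Control, with 2 above every Control library (L05 and L07) and 2 below (L02 and L08). The 5p arm of miR-181c, which shares its first 10 bases with miR-181a-5p, was counted far less often. miR-181c-5p had 505.9, 446.4, 444.0 and 298.6 normalized counts in L01, L04, L06 and L10, and 409.8 (L02), 560.8 and 1008 (L08) as the lowest, the median and the highest of FD. Of the FD libraries, 4 were above every Control library, and L08 was far above the rest. miR-181d-5p was the rarest of the 5p arms, with 109.2, 69.7, 67.2 and 51.9 normalized counts in L01, L04, L06 and L10, and with 49.1 (L02), 76.1 and 114.3 (L08) as the lowest, the median and the highest of FD. Its FD range enclosed its Control range.

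The 3p arms, the strands that are usually discarded, were rare beside their partners. miR-181a-3p had 1330, 825.1, 1059 and 703.8 normalized counts in L01, L04, L06 and L10, and 857.3 (L08), 1042 and 1320 (L09) as the lowest, the median and the highest of FD, all within the Control range. miR-181c-3p had 23.5, 25.5, 12.6 and 12.5 in L01, L04, L06 and L10, and 14.9 (L02), 20.5 and 68.2 (L08) in FD, so that a single FD library stood above Control. These values rested on 9 to 114 counts. miR-181b-3p had only 0 to 6 counts in a library and 30 in all, too few for the diet comparison. It had 0 of 7506955 counts in L10, which allows a share of up to 4.0e-05% for counting error alone.

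**Figure D1:**
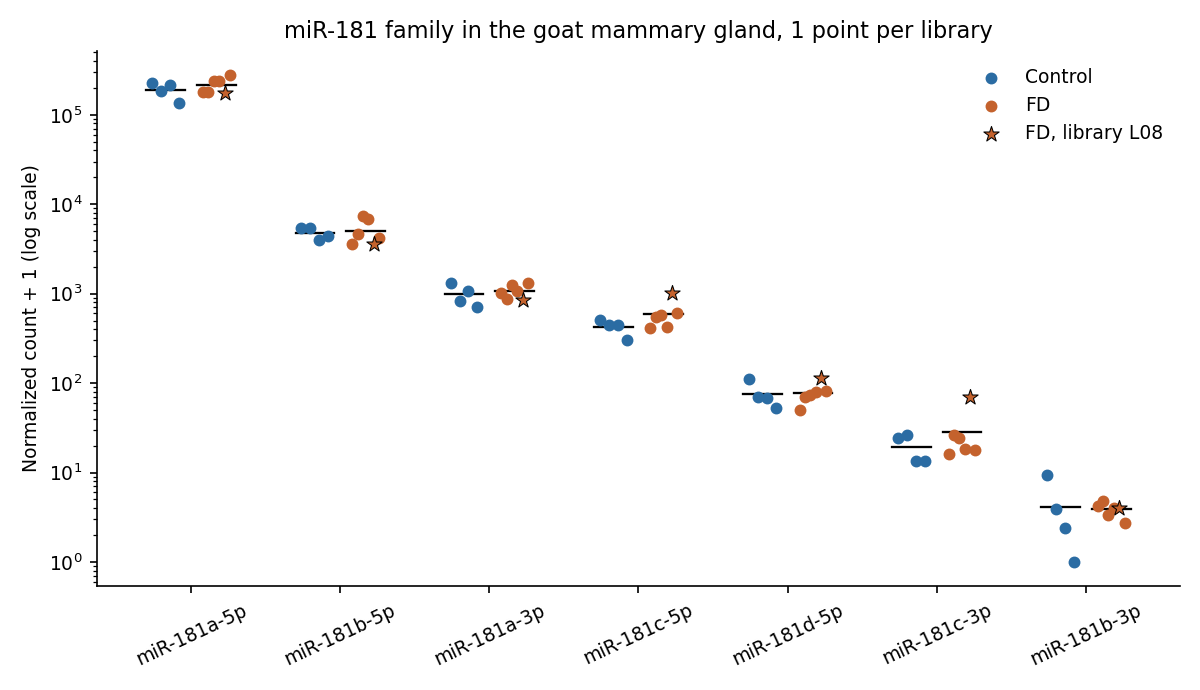
Normalized counts of the 7 members, with 1 added and on a log scale, in the 4 Control and 6 FD libraries; each point is a library, the bar is the mean of the diet and the star is the FD library L08. miR-181a-5p lies between 135896 and 277646 and every other member at or below 7388 in every library, while L08 is highest for miR-181c-5p, miR-181c-3p and miR-181d-5p only.

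The order of the levels by mean was miR-181a-5p, miR-181b-5p, miR-181a-3p, miR-181c-5p, miR-181d-5p, miR-181c-3p and miR-181b-3p. The mature sequences are 21 to 23 bases long, so length hardly enters this order, but adapters ligate to different sequences with different ease and the order is that of counts. Most neighbours in it did not overlap over the 10 libraries. The exceptions were miR-181a-3p and miR-181c-5p, in this order in 9 of 10 libraries with L08 the other way round, and miR-181d-5p and miR-181c-3p, whose ranges overlapped only through L08 although the order held in 10 of 10 libraries. The chromosome 11 3p arm, miR-181f-3p, ran from 354.3 to 613.7 normalized counts, within the range of miR-181c-5p.

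The question of the study was which miRNA of the gland change when goats are deprived of food, and none of the family was called. A quasi-likelihood test (edgeR) set FD against Control across the 490 miRNA with a highest normalized count over 28, with Benjamini-Hochberg adjustment over all of them and a threshold of 0.1. This called 0 of the 6 members tested. The background was 0% (0 of 490), with 77 of 490 (15.7%) at an unadjusted p under 0.05, among which there was no member. DESeq2 called 27 of 490 (85 at an unadjusted p under 0.05) and limma-voom 0 (60 at an unadjusted p under 0.05), in each case without a member. The normalized counts of the diets did not overlap for 11 of 490 miRNA (2.24%) and overlapped for all 7 members.

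The intervals give the sizes that the data allow. For miR-181a-5p the log2 fold change (FD over Control) was 0.15 ± 0.17 (SE), a fold of 1.11 with a 95% interval of 0.858 to 1.45 (edgeR adjusted p = 0.638). A change of this miRNA by 1.5-fold in either direction lay outside the interval. Another 3 members had estimates close to 0, with 0.05 ± 0.22 (SE) for miR-181b-5p (fold interval 0.745 to 1.44) and 0.11 ± 0.20 (SE) for miR-181a-3p (0.799 to 1.45). The third, miR-181d-5p, stood at 0.06 ± 0.26 (SE, 0.710 to 1.53) on only 46 to 191 counts per library. The edgeR adjusted p of these 3 was between 0.796 and 0.915. The 2 arms of miR-181c had the larger estimates and the wider intervals. miR-181c-5p stood at 0.48 ± 0.26 (SE), a fold of 1.40 with an interval of 0.938 to 2.08 (edgeR unadjusted p = 0.0926, adjusted p = 0.400). It had the 112th smallest p of the 490 miRNA. miR-181c-3p stood at 0.60 ± 0.48 (SE), with a fold interval of 0.739 to 3.11 (edgeR adjusted p = 0.504). It passed the filter only through the FD library L08, where it was high, so its estimate and p are given as descriptions.

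Single goats decided part of these values. Without L08 the log2 fold change was 0.20 ± 0.19 (SE) for miR-181c-5p and -0.15 for miR-181d-5p, and miR-181c-3p no longer passed the filter on low values, which it had passed through L08 alone. Without the Control library L10, which was the lowest of all 10 for 4 of the 6 tested members, the estimates were -0.02 for miR-181a-5p, -0.06 for miR-181a-3p, -0.05 for miR-181b-5p and -0.12 for miR-181d-5p, and 0.30 ± 0.28 (SE) for miR-181c-5p. The estimates of all 6 tested members were above 0 with all libraries (those of 245 of the 490 miRNA were), with a median of 0.13 against -0.00041 over all miRNA tested, but without L10 4 of the 6 were below 0. Both the count and the median include miR-181c-3p, admitted by its high FD value in L08, and are given as descriptions.

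**Figure D2:**
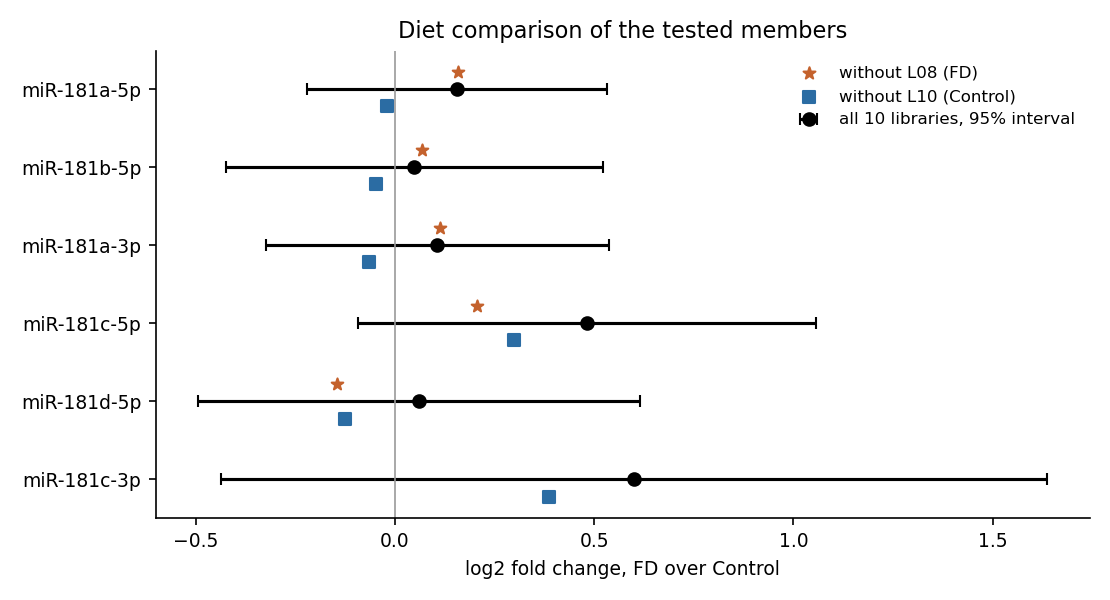
Diet comparison of the 6 tested members as log2 fold changes (FD over Control) with their 95% intervals (black), and the estimate without L08 (star) and without L10 (square). Every interval includes 0, the interval of miR-181c-3p is the widest at -0.44 to 1.64, and the squares of 4 members lie below 0.

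Ratios between members compare them within a library and need no normalization. The 6 ratios between the 5p arms were tested for a difference between diets by exact permutation of the libraries (two-sided, 210 arrangements), with adjustment over the 6. There were on median 40.1 counts of miR-181a-5p for 1 of miR-181b-5p, with 31.0 as the lowest ratio and 66.2 as the highest. The ratio to miR-181c-5p had a median of 444 and ran from 172 in L08 to 555. The ratio of miR-181b-5p to miR-181d-5p, the pair that differs by 1 base, was far from constant and ran from 31.1 in L08 to 100.5. For 5 of the 6 ratios the exact permutation p was between 0.348 and 0.900 (0.793 to 0.900 adjusted).

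The ratio between the neighbours miR-181c-5p and miR-181d-5p stood closest to a difference between diets. Control goats had 4.61, 6.37, 6.55 and 5.72 counts of miR-181c-5p for 1 of miR-181d-5p in L01, L04, L06 and L10. FD goats had 8.27 in L02, 8.02 in L03, 7.78 in L05, 5.33 in L07, 8.80 in L08 and 7.51 in L09. Of the FD libraries, 5 were above every Control library and L07 was below 3 of the 4. In Control the mean log2 ratio was 2.52 ± 0.23 (SD, n = 4), against 2.91 ± 0.26 (SD, n = 6) with food withdrawn, a difference of 0.39 with an exact permutation p of 0.0476, and 0.286 after adjustment over the 6 ratios. Without L07 the difference was 0.49 and the exact permutation p was 0.00794, the smallest that the 126 arrangements left can give, with an adjusted p of 0.0476. L07 was the only FD library within the Control range, so leaving it out had to give this p, which is no further evidence of a difference. With each of the other libraries left out the adjusted exact permutation p was between 0.286 and 0.786. The counts of miR-181d-5p behind the ratio were 46 to 191 per library.

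The arms of 1 hairpin were compared in the same way, over the 114 precursors with both arms tested. For miR-181a, 171 to 221 counts of the 5p arm were found for 1 of the 3p arm listed with it, and for miR-181c 14.7 to 35.6, with the lowest ratio in L08. The 5p counts of miR-181a came from both of its hairpins, so the first ratio is not that of a single duplex. The mean log2 ratio differed between diets by 0.03 for miR-181a (7.62 ± 0.15 against 7.65 ± 0.10 in FD, SD, exact permutation p = 0.719) and by 0.04 for miR-181c (4.52 ± 0.40 against 4.56 ± 0.41 in FD, SD, exact permutation p = 0.886), with 4 Control and 6 FD libraries. The hairpin of miR-181c was among the 114 only through the L08 value of its 3p arm, so its ratio and p are given as descriptions. Over the 114 precursors, 0 passed an adjusted p of 0.05 and 8 (7.02%) had an exact p under 0.05.

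The 3p arms of the miR-181a hairpins differ by 2 substitutions and can tell the loci apart where the identical 5p arm cannot. The mismatches allowed in counting were not given in the sources used here, so some of their reads may have been shared. The comparison of these 3p arms was chosen after the counts were seen. Of the counts of miR-181a-3p and miR-181f-3p combined, the chromosome 16 arm made up 68.4%, 65.8%, 68.8% and 66.5% in L01, L04, L06 and L10, the Control libraries. In FD goats it made up a share of 63.0% in L02, 65.5% in L03, 74.2% in L05, 69.2% in L07, 61.3% in L08 and 72.9% in L09. The lowest value, in L08, had a 95% interval (Wilson, counting error only) of 59.3% to 63.2%, and the highest, in L05, of 71.9% to 76.4%. These are the extremes of 10 libraries, and goat and library preparation cannot be told apart in them. The means of the diets were close, with 67.4% ± 1.47 (SD, n = 4) and 67.7% ± 5.31 (SD, n = 6), with a two-sided exact permutation p of 0.862 for the log2 ratio. By itself miR-181f-3p had a log2 fold change of 0.08 ± 0.18 (SE, edgeR adjusted p = 0.842).

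**Figure D3:**
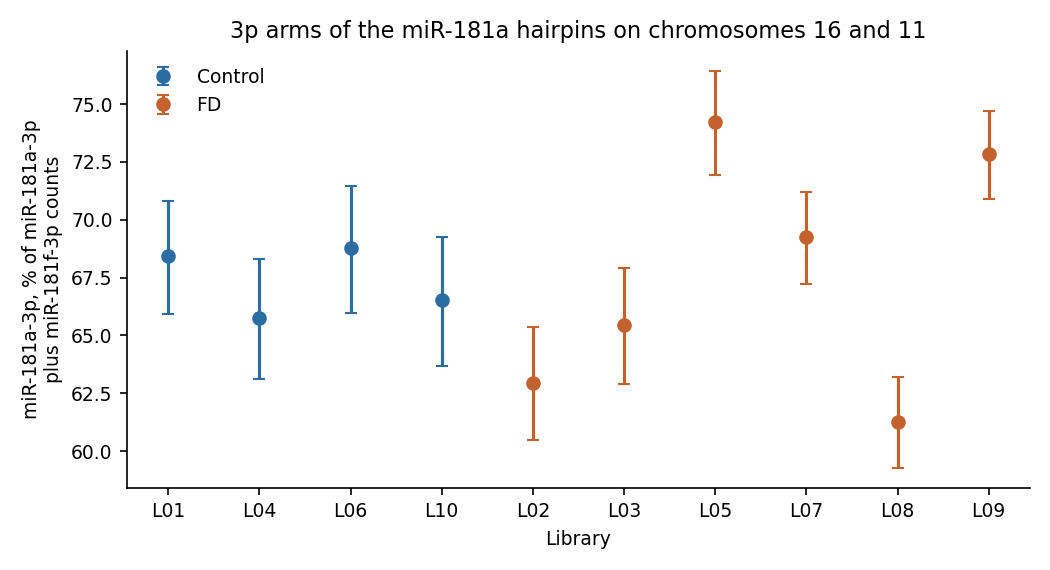
Share of the chromosome 16 arm (miR-181a-3p) in the counts of miR-181a-3p and miR-181f-3p together, per library, with 95% Wilson intervals for counting error; the axis does not start at 0. Control libraries lie between 65.8% and 68.8%, and FD libraries between 61.3% (L08) and 74.2% (L05).

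Correlations between members are of log2(normalized count + 1) over the 10 libraries, with two-sided permutation p adjusted over the 15 pairs of tested members. The arms of miR-181a went together, with r = 0.92 (adjusted permutation p = 0.00285) and Spearman's rho = 0.85 (adjusted permutation p = 0.0402). The r was 0.92 again within diets (adjusted permutation p = 0.00885), and also once the 2 libraries at most distance from the median, L01 and L10, were dropped. With each library left out in turn, it lay between 0.88 and 0.95. Among the 114 precursors with both arms tested this r had rank 6 from the highest, where the median was 0.56. The points of both arms share the depth and scaling of their library. miR-181f-3p, the 3p arm of the other hairpin, had r = 0.37 with miR-181a-5p and r = 0.54 with miR-181a-3p, given as descriptions.

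Of the 3 pairs among miR-181c-5p, miR-181c-3p and miR-181d-5p, 1 passed the threshold with all libraries. The arms of miR-181c had r = 0.86 (adjusted permutation p = 0.0341) and rho = 0.68 (adjusted permutation p = 0.171). This call was lost within diets (r = 0.85, adjusted permutation p = 0.0633) and without any 1 of L02, L03, L05, L07, L08 and L10 (adjusted permutation p from 0.0535 to 0.190). Among the 114 precursors its r had rank 22 from the highest. miR-181c-3p was among the tested members only through its L08 value. The pass and this rank thus draw on the library that admitted it and are given as descriptions. For miR-181c-5p and miR-181d-5p r was 0.75 and rho 0.75 (adjusted permutation p = 0.0643 and 0.134), and for miR-181c-3p and miR-181d-5p r was 0.71 and rho 0.59 (adjusted permutation p = 0.0643 and 0.303). Without L08 and L10, those at most distance from the median, the same 3 correlations were 0.39, 0.42 and 0.39, so that they rest on those libraries. Without L08 alone they were 0.60, 0.60 and 0.53 (adjusted permutation p = 0.190, 0.190 and 0.236). Without the Control library L01, in contrast, miR-181c-5p and miR-181d-5p had r = 0.87 and passed (adjusted permutation p = 0.0334). The order of the correlations turned with L08 as well. miR-181a-5p and miR-181c-5p had r = 0.29 with all libraries and 0.78 without L08 (adjusted permutation p = 0.693 and 0.110), and miR-181a-3p and miR-181c-5p 0.24 and 0.73 (0.780 and 0.117). The differences between these correlations were not tested. miR-181a-5p and miR-181b-5p had r = 0.41, rho = 0.50 (adjusted permutation p = 0.561 and 0.433), and miR-181b-5p and miR-181d-5p, nearly the same in sequence, had r = 0.15, rho = 0.18 (adjusted permutation p = 0.855 and 0.793). Of the 15 pairs, 2 passed an adjusted p of 0.05, 1 of them the arms of miR-181c, whose 3p arm was tested only through L08.

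**Figure D4:**
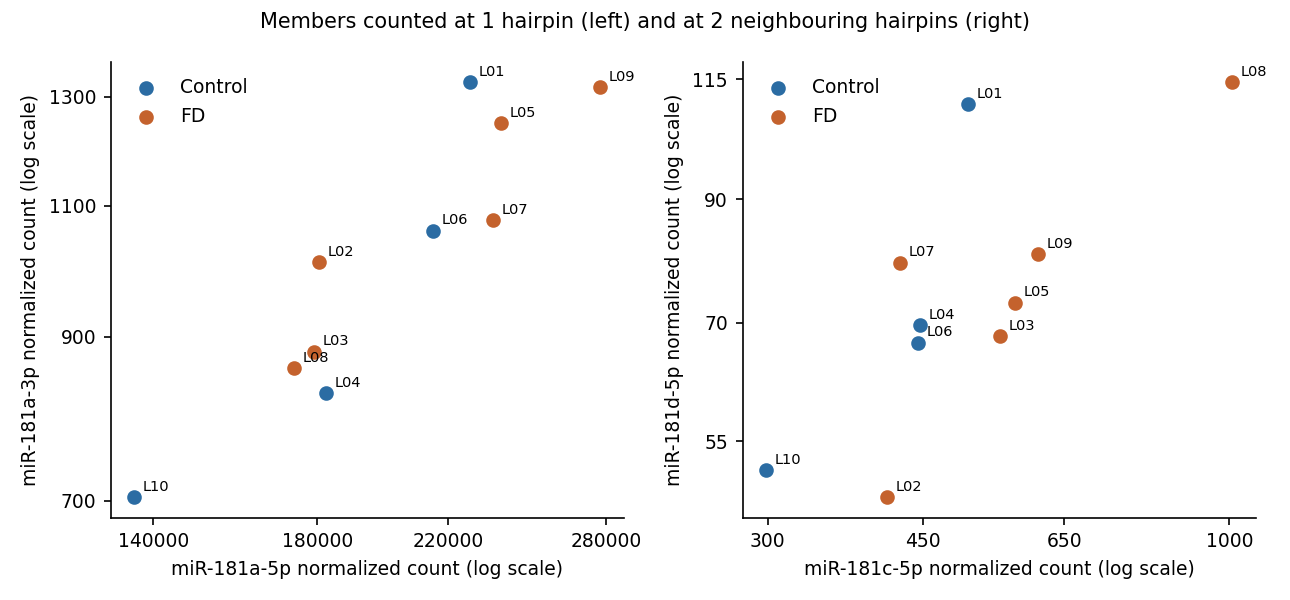
Normalized counts on log scales, 1 point per library, of miR-181a-5p against miR-181a-3p (left) and of miR-181c-5p against miR-181d-5p (right). On the left L10 is lowest for both arms with 135896 and 703.8; on the right L08 is highest for both with 1008 and 114.3, and L01 stands apart with 109.2 of miR-181d-5p.

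Library L08 stood apart from the other 9 in the arms of miR-181c. Its miR-181c-3p was 3.90 times the median of the other libraries, its miR-181c-5p 2.26 times and its miR-181d-5p 1.64 times, while miR-181a-5p, miR-181a-3p and miR-181b-5p were at 0.808, 0.810 and 0.765 times. On the log2 scale with 1 added, the distance of miR-181c-3p was 1.90, but this miRNA was among the 490 tested only through its L08 value, so its place among them is not given. The distance of miR-181c-5p was 1.17, equalled or passed by 13 of the 490 with itself included, and that of miR-181d-5p 0.71, equalled or passed by 50 (10.2%). For miR-181d-5p the Control library L01, at 109.2, was close to the 114.3 of L08. L08 was the highest library for 65 of the 490 miRNA and the lowest for 87, and it had the largest total, 9842009 counts. In the same library miR-150-5p, a miRNA of lymphocytes, was at its highest of 11787 normalized counts (others 2481 to 9510). So was miR-146a-5p at 4910 (others 1326 to 4846), while miR-155-5p, miR-223-5p, miR-223-3p and miR-146b-5p lay within the other libraries. The leukocyte sum of L08, 60751 with 37121 of it miR-146b-5p, had rank 6 of 10. The summed epithelial miRNA were at their lowest of 172861, with miR-200b-3p, miR-141-3p and miR-429-3p lowest there. miR-200a-3p, miR-200c-3p and miR-205-5p lay within the others, the last at 21479 (others 6356 to 22928). The part of these cells in the values of miR-181c and miR-181d was not tested.

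Among the next genes on the chromosome, miR-23a and miR-27a, no arm stood apart in L08 as those of miR-181c did. miR-27a-3p was highest in L08 with 14953 normalized counts (others 9738 to 14767), whereas miR-23a-3p, at 9173 there, lay within the others (7554 to 10043). miR-27a-5p in L08 was 82.0 (others 26.5 to 108.6), and miR-23a-5p had 0 counts in L08 and was too rare to test. miR-24 is cut from the same transcript in other mammals, but the MIR24 listed in RefSeq lies on chromosome 8, next to MIR27B. The counts of miR-24 may therefore not be those of a neighbour of miR-181c. In L08 miR-24 had 7549 of its 3p arm (others 4698 to 7561) and 51.4 of its 5p arm (others 33.6 to 71.8). In the diet comparison 0 of the 5 tested arms of miR-23a, miR-27a and miR-24 were called, against 0 of all 490 miRNA. Their log2 fold changes were 0.02 to 0.67.

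**Figure D5:**
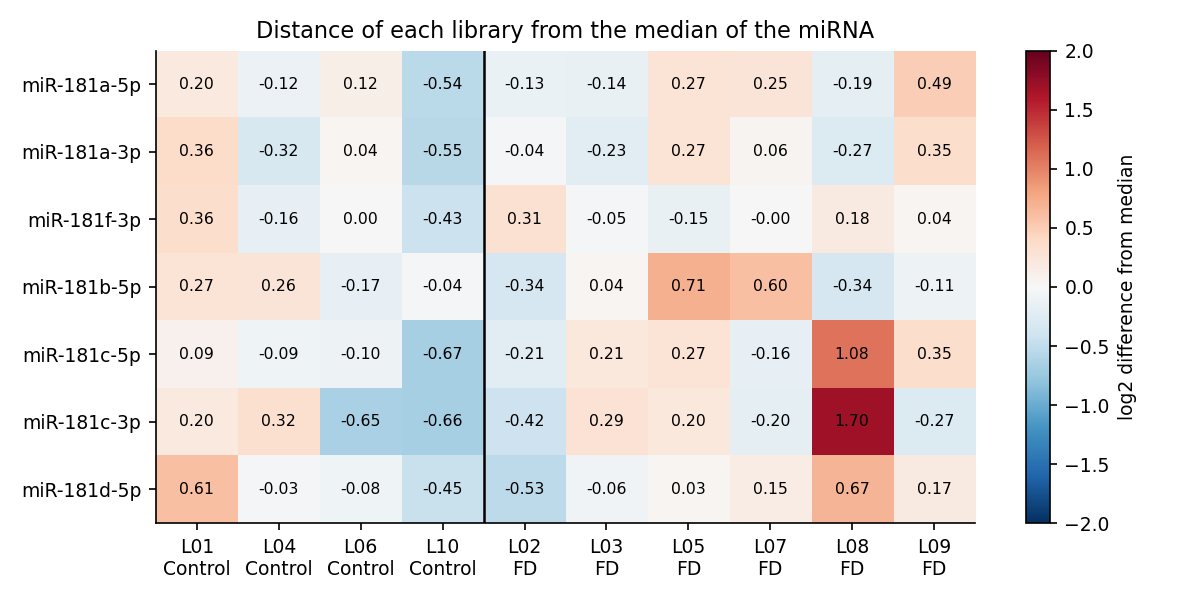
Log2 distance of each library from the median of the miRNA over all 10 libraries, for the 6 tested members and miR-181f-3p; red is above and blue below the median, and the line separates Control from FD. L08 stands at 1.08 and 1.70 for the arms of miR-181c, and L10 at -0.54 and -0.55 for the arms of miR-181a.

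Outside the family, the tested miRNA most like miR-181a-5p over the 10 libraries, by Pearson's r of log2(normalized count + 1), were miR-136-5p (r = 0.85), miR-192-5p (0.81), miR-3955-5p (0.80), the predicted miRNA chr17_23412-5p (0.77) and miR-190b-5p (0.76). Only miR-192-5p of these was abundant, with a mean of 11464 normalized counts. For miR-181b-5p they were the predicted chr8_12264-5p (r = 0.78), chr17_23412-5p (0.78), miR-1-3p (0.76), and miR-133b-5p and miR-133b-3p (0.76 each). miR-1 and miR-133b are known as miRNA of muscle. They were rare here, with means of 23.7 and 20.7 normalized counts, and the 2 miR-133b entries held equal counts in every library and count as 1. These are the highest of many correlations over 10 libraries and are given as descriptions. For miR-181c-5p, asked after the values were seen, miR-100-5p came first with r = 0.84, which was 0.64 without L08.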

How the data were processed

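Small RNA was measured in 1 library per goat, 4 Control and 6 FD. The counts are those the authors deposited, unnormalized whole numbers of reads on a mature miRNA; a further deposited column of normalized counts, a score whose divisor is not defined, was not used. Base calls were made with CASAVA 1.8.2, per the submitters' processing notes. The authors then trimmed adapters (Cutadapt), selected reads by size, placed these on CHIR_1.0, predicted precursors with miRDeep2 on all libraries together and counted reads with its quantifier on these and on miRBase hairpins, after which redundant names were removed. The miRDeep2 score and read counts per precursor are also as deposited. Amplified copies could not be removed, so Wilson intervals and limits on a count of 0 cover counting error only.

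Normalized counts were obtained by dividing each library by its DESeq2 size factor (median of ratios). The 490 miRNA with a highest normalized count above 28 were compared with edgeR (TMM, glmQLFit and glmQLFTest, two-sided, Benjamini-Hochberg, threshold 0.1). The standard error is the log2 fold change divided by the square root of F, and 95% intervals use its degrees of freedom. Ratios had 0.5 added to each count and were tested by exact permutation, and correlations with 100000 permutations (within diets for deviations from the diet means), both with a threshold of 0.05.

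The members, marker lists, tests and alternatives were chosen with earlier results of these data known. Named were the members, other miRNA named miR-181 or with the family seed, and miR-23a, miR-27a and miR-24, taken as neighbours. Also named were the 5 miRNA most correlated with miR-181a-5p and with miR-181b-5p. Those named as seen afterwards are outside this rule. Of the lists, miR-142-5p, miR-142-3p, miR-486-5p and miR-199a-3p were not matched. Alternatives were DESeq2, limma-voom, other scalings and filters, another pseudocount or total, and each library left out. The test was tried on simulated data. Fits were made in R 4.3.3 (edgeR 4.0.16, DESeq2 1.42.0, limma 3.58.1), and other values and figures in Python 3.11.15 (pandas 2.3.3, numpy 2.4.6, matplotlib 3.10.9, scipy 1.17.1).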

Additional observations from a re-analysis of the deposited data

Results flagged for a closer look

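For each member, the family share, the ratios and the share of the chromosome 16 arm, the highest and lowest library of each diet were compared with the other libraries of that diet by Dixon's criterion, 36 groups of values in all. Of these, 3 had a library beyond it, where chance gives about 1 in 20 groups. The groups are not independent of each other, and all 3 involve an arm of miR-181c. In FD, miR-181c-5p had 1008 normalized counts in L08, where the other 5 FD libraries had 409.8 to 607.6. miR-181c-3p had 68.2 in the same library, where the others had 14.9 to 24.9. The log2 ratio of miR-181c-5p to miR-181d-5p was 2.42 in L07, below the 2.91 to 3.14 of the other FD libraries and within the Control range of 2.20 to 2.71.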

How the results depend on the processing

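No member was called under any alternative fit. The number of miRNA called, 0 with edgeR, was 27 with DESeq2, 5 without a filter and 0 to 1 with each library left out, the 1 being without L02. With limma-voom miR-181b-5p stood at -0.0074 instead of 0.05. With each library left out the log2 fold changes ran from -0.020 to 0.24 for miR-181a-5p, -0.065 to 0.27 for miR-181a-3p, -0.076 to 0.12 for miR-181b-5p, 0.20 to 0.58 for miR-181c-5p, 0.39 to 0.79 for miR-181c-3p (which could not be fitted without L08, where it fails the filter) and -0.15 to 0.29 for miR-181d-5p. The difference of log2 ratios ran from -0.18 to 0.16 for miR-181b-5p over miR-181d-5p, 0.28 to 0.49 for miR-181c-5p over miR-181d-5p, -0.034 to 0.089 for the arms of miR-181a and -0.10 to 0.22 for those of miR-181c. Without the 10 most abundant other miRNA in the total, the family share was 10.4% in Control and 11.2% in FD. The correlation of the arms of miR-181c had an adjusted permutation p above 0.05 within diets (r = 0.85, p = 0.0633) and without L08, L10, L02, L03, L05 or L07 in turn (r from 0.60 to 0.92 over the libraries left out). That of miR-181c-5p and miR-181d-5p gained a call without L01 (r = 0.87, adjusted permutation p = 0.0334). Pairs of members that were not called changed sign over the libraries left out: miR-181a-3p with miR-181c-3p (r from -0.44 to 0.20) and with miR-181c-5p (-0.14 to 0.73), miR-181a-5p with miR-181c-3p (-0.47 to 0.23) and with miR-181c-5p (-0.14 to 0.78), and miR-181b-5p with miR-181c-3p (-0.18 to 0.58), miR-181c-5p (-0.32 to 0.25) and miR-181d-5p (-0.087 to 0.51). The cause was not tested. No paired analysis was possible because each goat was on a single diet and gave a single library. With 4 and 6 goats the intervals of single members are wide, and for miR-181c-3p and miR-181d-5p the counts, 9 to 191 per library, add counting error.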
